A study of Homo sapiens with 4 samples.

Results

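Connexins are the membrane proteins of vertebrate gap junctions, and the 7 genes described here are 6 connexin genes (GJB1, GJB2, GJB5, GJB6, GJA1 and GJC1) and PANX1, a pannexin gene. They were taken by symbol from a table of 20510 genes, in which 16 connexin and 2 pannexin genes were listed in all. The family was chosen on the fall of GJB2 FPKM in shTBX3, so the GJB2 difference is given as a description with no test, and no count that includes it supports anything. RNA came from cultures labelled K1, a human line named for papillary thyroid carcinoma, that carried a control hairpin (shCtrl, 2 libraries) or a short hairpin RNA against the T-box repressor TBX3 (shTBX3, 2 libraries). Both groups were grown in the same serum-supplemented medium, and the labels give no time after hairpin delivery, hairpin sequence or clone. Values are FPKM, fragments scaled to transcript length and to the mapped fragments of the library, which allows levels of different genes to be compared within a library.

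Connexin proteins assemble as hexamers into hemichannels, and hemichannels of neighbouring cells dock into channels that pass ions and small metabolites between the cytoplasms. Beta connexins (GJB genes) are typical of epithelia, the alpha connexin GJA1 is the most widespread connexin of the body, and PANX1 forms channels in the plasma membrane that release ATP rather than joining cells. T-box proteins, TBX3 among them, are known as repressors of connexin genes in the conduction system of the heart.

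The upstream sequences of 4 members are shown, GJB2 and PANX1 with clear mRNA and GJB6 and GJA1 near 0. GJC1, at 1.90 to 2.44 FPKM, lies between these and, like GJB5, has no sequence here. Whether these sequences bear on the mRNA level was not tested. Each runs over the 250 bases before 1 annotated start, from RefSeq on GRCh38.p14, and 5 of the 7 members were matched in that table. Only 1 start was read for each member. GJB6 has 4 listed RefSeq transcripts and GJB1 has 2, so their windows may not lie at the start used in these cells. Capitals mark GC boxes, the letters GGGCGG on either strand, which is the core of the sites that Sp1-family factors bind.
GJB2 (chr13:20192939-20193188, minus strand): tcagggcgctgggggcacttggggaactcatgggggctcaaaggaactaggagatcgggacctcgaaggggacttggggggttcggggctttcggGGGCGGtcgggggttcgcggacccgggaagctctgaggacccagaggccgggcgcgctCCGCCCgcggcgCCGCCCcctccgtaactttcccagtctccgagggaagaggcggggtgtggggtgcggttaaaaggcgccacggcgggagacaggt
PANX1 (chr11:94128591-94128840, plus strand): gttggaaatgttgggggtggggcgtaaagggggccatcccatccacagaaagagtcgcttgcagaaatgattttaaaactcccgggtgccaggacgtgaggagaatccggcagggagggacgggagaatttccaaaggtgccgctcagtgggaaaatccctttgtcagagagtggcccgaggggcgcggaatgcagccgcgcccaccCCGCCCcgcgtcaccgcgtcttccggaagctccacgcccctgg
GJB6 (chr13:20230979-20231228, minus strand): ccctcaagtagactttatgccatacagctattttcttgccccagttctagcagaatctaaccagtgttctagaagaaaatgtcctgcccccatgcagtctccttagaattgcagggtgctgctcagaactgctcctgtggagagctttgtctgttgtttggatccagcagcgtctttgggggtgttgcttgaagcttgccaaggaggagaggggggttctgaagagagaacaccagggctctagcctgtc
GJA1 (chr6:121435396-121435645, plus strand): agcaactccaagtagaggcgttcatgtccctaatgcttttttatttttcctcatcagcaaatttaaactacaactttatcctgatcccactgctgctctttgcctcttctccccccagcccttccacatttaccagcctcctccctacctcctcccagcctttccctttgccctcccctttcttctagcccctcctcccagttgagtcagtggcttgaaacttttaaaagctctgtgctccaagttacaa
Over the whole window of 300 bases, which adds 50 bases after the start, GJB2 held 3 GC boxes and PANX1 held 1, while GJB6, GJA1 and GJB1 held none. At least 1 GC box was present in 45% of 35116 promoter windows of that length. The GJB2 boxes lay at bases -155 to -150, -97 to -92 and -85 to -80 from the start, and the PANX1 box at -43 to -38. The GC content was 71.7% for GJB2, 62.3% for PANX1, 56% for GJB1, 51.3% for GJB6 and 47% for GJA1, against a median of 58.7% over all windows. The letters TATAAA (11.5% of all windows), the T-box core GGTGTGA (3.45%) and its shorter form GTGTGA, which lies inside the longer one (12%), were searched on both strands and were in none of these 5 windows. No match says only that these letters are not in this window.

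TBX3 itself stood at 48.94 and 54.77 FPKM in shCtrl and at 27.81 and 36.99 in shTBX3 ones, and the groups did not overlap, although limma's adjusted p was 0.428. The libraries held between 8520000 and 8560000 fragments as read from the steps of microRNA genes, and 13924 genes that reached an FPKM of 1 in 2 or more libraries were tested. Nothing in the labels states that replicates were separate cultures, and a p-value therefore speaks of library-to-library spread alone, which may be technical. Of 8 thyroid markers TG, TSHR, NKX2-1 and FOXE1 never exceeded 0.31 FPKM, PAX8 ranged from 1.20 to 1.88 and SLC5A5 from 2.42 to 3.28, and the summed FPKM of the 8 lay between 5.57 and 5.91 in all 4 libraries. Of 9 colon epithelial markers CDX2 stood between 116.78 and 147.75 and CDH17 between 32.61 and 45.08, while CDX1, FABP1, GPA33 and MUC2 were at 0.58 or below in every library. Their sum, most of it CDX2, was 195.21 and 248.36 in shCtrl libraries against 197.26 and 207.62 in shTBX3 ones. Fibroblast, endothelial and leukocyte lists summed to at most 2.98, 1.21 and 18.41 FPKM, the last carried by LYZ, which epithelial cells also make. Of the 5 colon markers that were tested, 1 had a positive and 4 a negative difference, shTBX3 minus shCtrl. LGALS4 was at 4.33 and 5.59 in shCtrl libraries against 1.31 and 1.39 in shTBX3 ones (limma adjusted p = 0.102). KRT20 was at 18.30 and 36.21 against 35.86 and 29.79, and VIL1 at 8.98 and 12.12 against 8.86 and 11.21. The groups overlapped for both KRT20 and VIL1. The part of cell identity in any result below was not tested.

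GJB2, a connexin of the cochlea, skin and many secretory epithelia, was the connexin with the most mRNA in the control libraries. Its FPKM was 32.00 and 27.27 in shCtrl libraries against 10.69 and 9.74 in shTBX3 ones. The groups did not overlap, and shTBX3 was the lower. GJB2 was chosen for this fall, so the gap between the groups supports nothing. The means were 29.6 ± 3.34 and 10.2 ± 0.672 (SD, n = 2 each), a level 2.9-fold lower in shTBX3, and the fitted difference on the log2(FPKM + 1) scale was -1.45 ± 0.14 (SE). These levels correspond to about 617 and 526 fragments in shCtrl and 206 and 187 in shTBX3. Bulk RNA cannot tell fewer cells with GJB2 mRNA from less of it per cell. On the same log2 scale the replicates of GJB2 differed by 0.22 in shCtrl and 0.12 in shTBX3, and the median gene differed by 0.19 and 0.18.

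With limma's adjusted p under 0.05 over all genes, 1 of the 7 members was called, GJB2, against 0.180% of all genes tested (25 of 13924). Only 3 members passed the filter on low values, GJB2, GJC1 and PANX1. The call of GJB2 was lost when either shTBX3 library was left out. The order of values, with both shTBX3 libraries lower, was found in 17.0% of all genes and, among the members, in GJB2 alone. Because GJB2 was chosen for this difference, nothing is read from these counts.

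**Figure D1:**
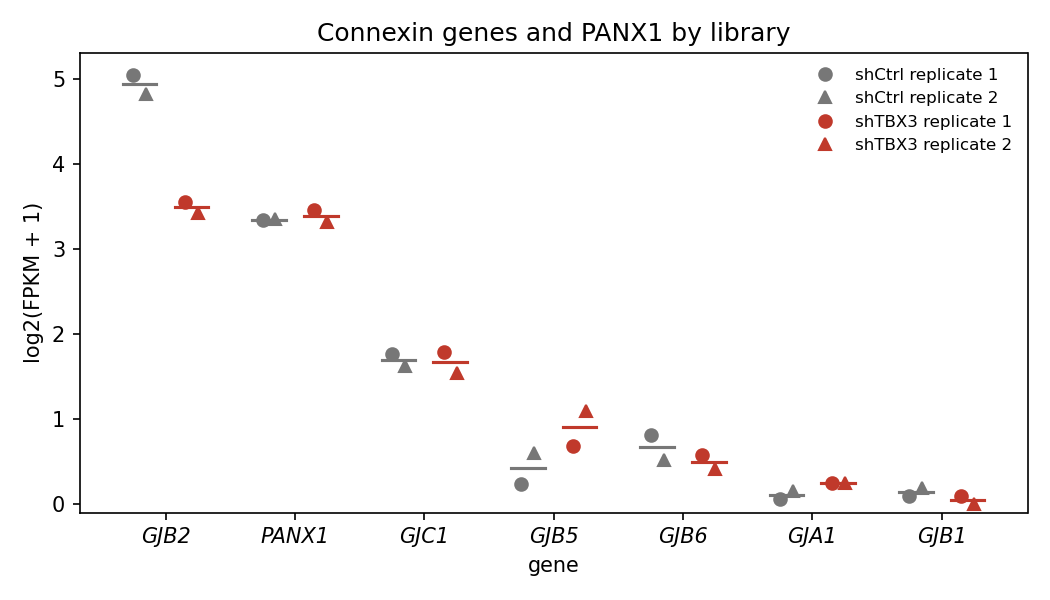
Level of each member, as log2(FPKM + 1), by library, with shCtrl (2 libraries) in grey and shTBX3 (2 libraries) in red; circles are replicate 1, triangles replicate 2, and bars mark the group mean FPKM on the same scale. GJB2 falls from 32.00 and 27.27 to 10.69 and 9.74 FPKM, PANX1 and GJC1 overlap between groups, and the other 4 members lie at an FPKM of 1.13 or below.

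GJB6 is the nearest relative of GJB2 among the members and in the inner ear shares channels with it. It lies 29023 bases from GJB2 in the same orientation on chromosome 13 (GRCh37, 20796101 to 20806504, minus strand, with GJB2 at 20761602 to 20767077). Its FPKM was 0.76 and 0.43 in shCtrl libraries against 0.49 and 0.33 in shTBX3 ones, and the groups overlapped. At about 13, 7, 8 and 6 fragments, the ratio of shTBX3 to shCtrl was 0.702, with an exact 95% counting interval of 0.328 to 1.46 that does not include the spread between libraries. A difference in GJB6 was not detectable at this depth.

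GJB5, a connexin of stratified epithelia, was at a low level and was higher in both shTBX3 libraries. Its FPKM was 0.18 and 0.51 in shCtrl libraries against 0.61 and 1.13 in shTBX3 ones, so the groups did not overlap. This order of values was found in 2 of the 7 members, GJB5 and GJA1, and in 13.7% of all genes. The counts behind these values were about 2, 6, 7 and 13 fragments. Pooled by group, they gave a ratio of 2.51 with an exact 95% counting interval of 1.06 to 6.59. The interval does not include the spread between libraries. GJB5 reached an FPKM of 1 in 1 library and was outside the main test, and with every gene kept limma's adjusted p was 0.867. The gene lies on chromosome 1 (GRCh37, 35220648 to 35224113, plus strand), and strandedness is not stated, so fragments from the opposite strand cannot be told apart from its own.

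GJB1, the connexin of hepatocytes and myelinating Schwann cells (GRCh37, chromosome X, 70432661 to 70445366, plus strand), was close to absent. Its FPKM was 0.07 and 0.14 in shCtrl libraries against 0.07 and 0 in shTBX3 ones, or about 1, 2, 1 and 0 fragments. A count of 0 in shTBX3 replicate 2 allows an FPKM of up to 0.185 (3 fragments), so no fold is given.

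GJA1, the main connexin of working heart muscle, is among the genes that T-box repressors are known to silence there (GRCh37, chromosome 6, 121756741 to 121770873, plus strand). Its FPKM was 0.04 and 0.11 in shCtrl and 0.19 in both shTBX3 libraries. The values did not overlap, but they rest on about 1 and 3 fragments against 5 and 5. The ratio of 2.51 had an exact 95% counting interval of 0.724 to 11, and limma with every gene kept gave an adjusted p of 0.867. GJA1 also has a processed pseudogene of near-identical sequence, so its value is uncertain. The mean TBX3 level of the same shTBX3 libraries was 0.625 of that in shCtrl, and a link between TBX3 and GJA1 was not tested.

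GJC1, a connexin of vascular smooth muscle and the cardiac nodes (GRCh37, chromosome 17, 42875816 to 42908184, minus strand), came after GJB2 among the member connexins by level. Its FPKM was 2.40 and 2.07 in shCtrl libraries against 2.44 and 1.90 in shTBX3 ones. The groups overlapped, with a log2 difference of -0.03 ± 0.19 (SE) and a limma adjusted p of 0.994. Its GENCODE transcript models, short ones left out, range from 3226 to 7692 bases. With these lengths shCtrl replicate 1 held between 66 and 157 fragments.

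PANX1, the ATP-release channel gene (GRCh37, chromosome 11, 93862007 to 93915134, plus strand), stood at a like level in all libraries. Its FPKM was 9.12 and 9.17 in shCtrl libraries against 9.94 and 8.92 in shTBX3 ones, from 214 to 239 fragments in each library. The groups overlapped, with means of 9.14 ± 0.0354 and 9.43 ± 0.721 (SD, n = 2 each), a log2 difference of 0.04 ± 0.14 (SE) and a limma adjusted p of 0.991. GJB2 stood at 3.51 and 2.97 times the FPKM of PANX1 in the shCtrl libraries and at 1.08 and 1.09 times in the shTBX3 libraries.

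Within each library the order of levels was thus GJB2, PANX1, GJC1, and then the members at an FPKM of 1.13 or below. GJB2 and PANX1 were far apart in shCtrl, while in shTBX3 replicate 1 their values (10.69 and 9.94) were closer than the PANX1 replicates of that group (9.94 and 8.92). Among the low members, GJB5 and GJB6 changed places between libraries, and GJA1 and GJB1 did so within the counting error of a few fragments.

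Of the FPKM summed over the 16 connexins, GJB2 made up 54.7% and 50.6% in shCtrl libraries against 26.6% and 23.3% in shTBX3 ones. The sum itself was 58.49 and 53.87 in shCtrl libraries against 40.18 and 41.78 in shTBX3 ones. The 15 connexins other than GJB2 added up to 26.49 and 26.60 in shCtrl libraries against 29.49 and 32.04 in shTBX3 ones, so the summed level of the rest was not lower in shTBX3. These shares follow from the values that chose GJB2 and have no test.

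**Figure D2:**
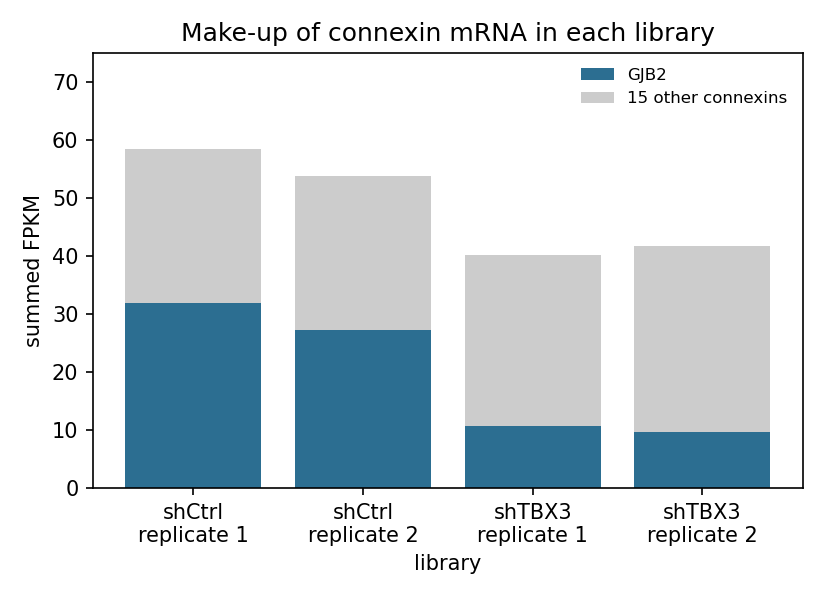
Summed FPKM of the connexin genes in each library, divided into GJB2 (blue) and the 15 other connexins (grey); each bar is 1 library. GJB2 is the larger part in both shCtrl libraries (54.7% and 50.6%) and the smaller in both shTBX3 libraries (26.6% and 23.3%).

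Of the other connexins and pannexins, 5 passed the filter, with 3 positive and 2 negative log2 differences and none past limma's threshold. GJC3, a connexin described in glia and the cochlea, was at 1.29 and 2 in shCtrl libraries against 0.65 and 0.85 in shTBX3 ones (log2 difference -0.59 ± 0.23, limma adjusted p = 0.704), with at most 19 fragments in a library. GJA3, a lens connexin that neighbours GJB2 on chromosome 13, was at 0.82 and 0.60 against 1.20 and 1.01, which did not overlap but did not pass (limma adjusted p = 0.909). The filter admitted GJC3 through its shCtrl values alone and GJA3 through its shTBX3 values alone. Nothing is therefore read from the gaps or signs of these genes. GJD3 overlapped between groups at 0.71 and 2.07 against 1.29 and 1.71, and so did PANX2 at 3.97 and 6.52 against 4.39 and 4.79. Over the 13924 genes tested, 6536 differences were positive and 7388 negative, with a median of -0.01.

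**Figure D3:**
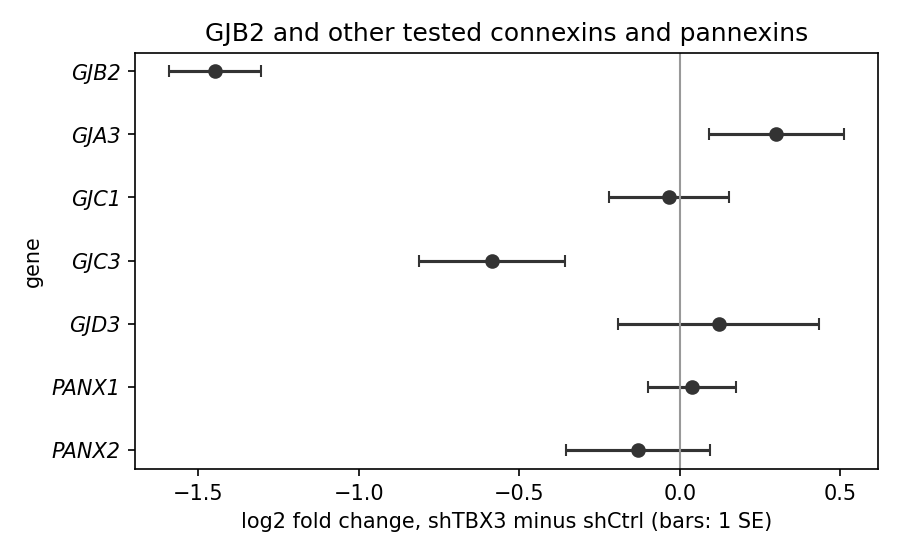
Fitted log2 difference between shTBX3 and shCtrl, on the log2(FPKM + 1) scale, for GJB2 and 6 other connexins and pannexins that passed the filter; bars are 1 SE and the grey line marks no difference. GJB2, which chose the family, lies at -1.45, and the other 6 genes lie between -0.59 and 0.30.

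The genes that flank GJB2 were read next. Of 11 neighbours on chromosome 13 (GRCh37) that passed the filter, from MPHOSPH8 to LATS2, 8 had positive and 3 negative differences, the median was 0.07 and none passed limma's threshold (smallest adjusted p = 0.852). Their log2 differences ran from -0.13 to 0.40. GJA3, among them, passed the filter through its shTBX3 values alone, so nothing is read from its sign. CRYL1, a crystallin-related dehydrogenase gene that lies beyond GJB6, was at 8.94 and 13.44 in shCtrl libraries against 9.86 and 10.27 in shTBX3 ones. PSPC1, which encodes a paraspeckle protein, was at 44.77 and 38.26 against 44.51 and 32.13. The groups overlapped for both genes.

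**Figure D4:**
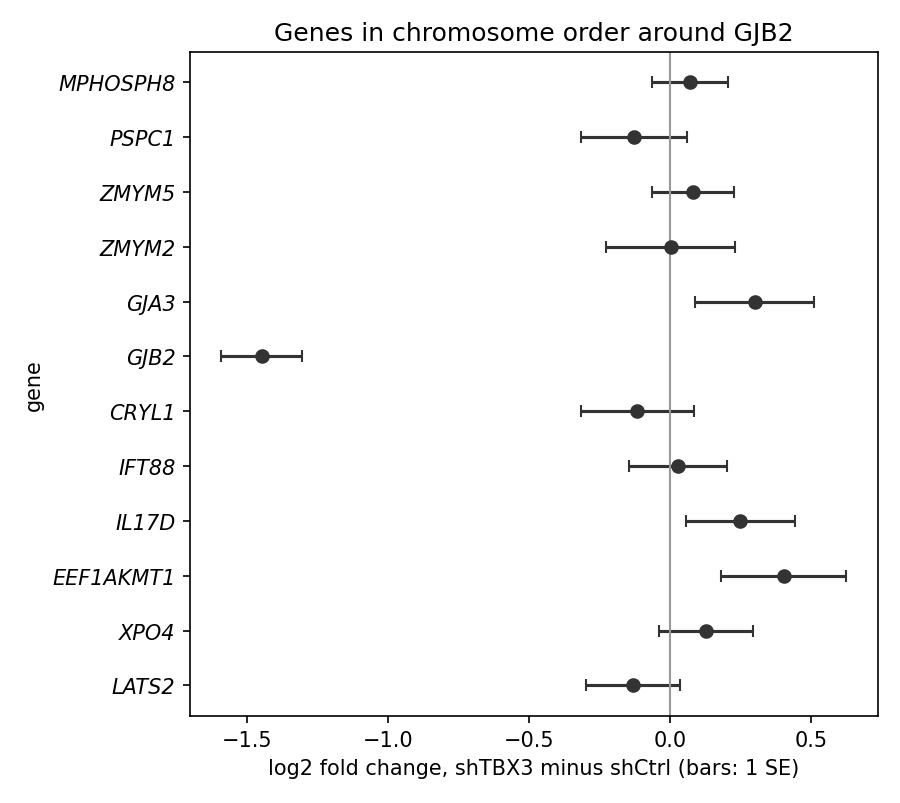
Fitted log2 difference between shTBX3 and shCtrl, on the log2(FPKM + 1) scale, for GJB2 and its 11 tested neighbours in the order of chromosome 13; bars are 1 SE and the grey line marks no difference. GJB2 lies at -1.45 and the neighbours between -0.13 and 0.40.

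The 3' UTR of GJB2, 1431 bases in its canonical GENCODE transcript, holds the heptamers TGTCGTT and GTCGTTA, which earlier work on this comparison had ranked from the same libraries. They overlap in a single site at bases 1029 to 1036 of the UTR, shown here with its flanks and with the overlapping heptamers in capitals.
GJB2 (GRCh37, chr13:20761995-20762020, minus strand): agaagtttcTGTCGTTAaaaacagat
Neither heptamer was in the canonical 3' UTR of the other 6 members, and 3.32% of 11239 canonical 3' UTRs of tested genes held at least 1 of them. The heptamers and GJB2 were both picked from these same libraries, so the match supports nothing. The site is a description of sequence, and its part in the fall of GJB2 was not tested.

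Factors known at connexin promoters were mostly expressed, but none passed the threshold. Of 8 tested, TBX3 among them, 3 had positive and 5 negative log2 differences, with a median of -0.04, and 4 of each sign with upper-quartile scaling. SP1, the factor of GC boxes, stood at 19.91 and 24.80 in shCtrl libraries against 20.00 and 24.34 in shTBX3 ones, with overlapping groups. TFAP2C, an AP-2 factor of epithelia, was at 16.03 and 16.97 against 10.62 and 12.18 (log2 difference -0.50 ± 0.14, limma adjusted p = 0.482). JUN, a subunit of AP-1, was at 3.97 and 5.99 against 10.37 and 13.92 (1.14 ± 0.22, limma adjusted p = 0.226). Both TFAP2C and JUN had groups that did not overlap.

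Genes for connexin partners, trafficking and turnover had 9 positive and 5 negative differences among 14 tested, with a median of 0.06 and none past the threshold, and 5 positive and 8 negative without shTBX3 replicate 1. NOV, a secreted CCN protein that binds GJA1 protein, was at 0.41 and 0.49 in shCtrl libraries against 2.34 and 1.54 in shTBX3 ones (log2 difference 1.01 ± 0.23, limma adjusted p = 0.335). The filter admitted NOV through its shTBX3 values alone, so nothing is read from its gap or sign. TJP3, a ZO scaffold of cell junctions, was at 19.51 and 38.35 against 10.84 and 22.81, and replicate 2 was the higher in both groups. EZR, a membrane-actin linker, ranged from 118.97 to 200.03 with both extremes in shTBX3.

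Of 13 connexin kinase genes tested, 2 had positive and 11 negative differences (median -0.13), none of which passed the threshold. The balance rested on shCtrl replicate 2: without it 7 were positive and 6 negative. It was 4 and 9 with upper-quartile scaling. PRKCD, a protein kinase C gene, was at 12.86 and 17.59 in shCtrl libraries against 10.50 and 12.63 in shTBX3 ones (limma adjusted p = 0.841). AKT1 was at 97.73 and 84.01 against 82.44 and 81.38 (limma adjusted p = 0.931).

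The adherens junctions and desmosomes that hold cells close enough for gap junctions were represented by 11 tested genes, 6 with positive and 5 with negative differences and a median of 0.08 (8 and 3 with upper-quartile scaling, 9 and 2 without shCtrl replicate 2, 5 and 6 without shCtrl replicate 1). None passed the threshold. CDH1, which encodes E-cadherin, stood at 142.94 and 180.60 in shCtrl libraries against 141.19 and 153.76 in shTBX3 ones. PERP, a desmosomal protein, was at 859.13 and 784.46 against 629.20 and 573.87, with groups that did not overlap (log2 difference -0.45 ± 0.12, limma adjusted p = 0.47). DSC2, a desmosomal cadherin, was at 7.62 and 11.80 against 13.02 and 15.51 (0.53 ± 0.22, limma adjusted p = 0.745).

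Around PANX1, the genes of ATP release and purinergic signalling had 6 positive and 6 negative differences among 12 tested, with a median of -0.02 and none past the threshold. P2RX4, an ATP-gated channel, was at 18.73 and 20.68 in shCtrl libraries against 17.68 and 21.90 in shTBX3 ones. Other large-pore channel genes, of the LRRC8 volume-regulated and CALHM families, had 4 positive and 2 negative differences among 6 tested (median 0.13), none past the threshold. The balance was 3 and 3 without shCtrl replicate 1 or shTBX3 replicate 2, 5 and 1 without either other library, and 4 and 7 (median -0.05) with no filter. LRRC8A, the obligatory LRRC8 subunit, stood at 10.61 and 13.28 against 11.57 and 14.17.

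At an unadjusted limma p under 0.05 stood 929 of the 13924 genes tested. With GJB2 left aside, these lists held 1 of 5 connexins (GJC3) and 1 of 14 partner genes (NOV). They also held 2 of 11 adhesion genes (PERP and DSC2), 3 of 8 promoter factors (JUN, TFAP2C and TBX3) and 1 of 5 colon markers (LGALS4). None of these passed after adjustment, and GJC3 and NOV had entered the test only through the group where they were higher. The kinase, purinergic, large-pore, pannexin and chromosome 13 neighbour lists held 0 at that limit, GJB2 left aside. They had 13, 12, 6, 2 and 11 tested genes, in that order.

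The 5 genes whose profile over the 4 libraries was most like that of GJB2 were LRRC47, CHMP7, CDKN3, CXCL3 and SNPH. Likeness is the Euclidean distance between log2(FPKM + 1) values centred on the gene mean, over 9155 genes with a mean FPKM of at least 5, and these distances ran from 0.264 to 0.319. CHMP7, an ESCRT-III family gene, was at 26.24 and 28.98 in shCtrl libraries against 10.15 and 9.66 in shTBX3 ones. CXCL3, a neutrophil-attracting chemokine, was at 32.08 and 32.98 against 9.88 and 9.26. PANX1 (distance 1.49) ranked 5159 of the 9155 genes. The distance uses the values that chose GJB2, so the nearest genes have a like fall by construction. Shared regulation was not tested.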

How the data were processed

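RNA of 4 libraries labelled K1, 2 shCtrl and 2 shTBX3, was sequenced, per the labels, on a BGISEQ-500. FPKM per gene is as the authors computed and deposited it. Named per the submitters' processing notes, without versions or roles, are RSEM, Bowtie2, HISAT and the build hg19. For the annotation release, filters and strandedness, the sources used here state nothing. As FPKM is relative to the library total, a change in abundant genes shifts all others.

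The 13924 genes that reached an FPKM of 1 in 2 or more libraries entered a limma 3.58.1 fit (R 4.3.3) of log2(FPKM + 1), shTBX3 minus shCtrl (intensity trend, two-sided, Benjamini-Hochberg adjustment over all genes tested, threshold 0.05), which was tested on simulated data. The pseudocount of 1 understates changes of low genes. The design left 2 residual degrees of freedom. An exact permutation test of 2 against 2 libraries cannot go below 0.333 and was not used.

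Fragments per library were fitted to the whole steps of microRNA FPKM at up to 6 fragments. Between 83% and 86.4% of values came out whole within 0.05 fragments. Fragments of a gene were then computed from the length of its GENCODE release 44 canonical transcript mapped to GRCh37, less the 36 or 37 bases fitted with the steps, and are approximate. Ratios of fragments carry exact 95% intervals (Clopper-Pearson on the split between groups), which like the floor of 3 fragments cover counting error only.

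The members, lists and tests were chosen with earlier results of these data known. The rule for named genes took the members and TBX3, connexins and pannexins at an FPKM of 1 in any library, the 3 highest, the 2 of smallest p and any past the threshold in each list, and the 5 genes most like GJB2. Planned protein comparisons were not made here, and some genes that the rule names are not reported here. Marker lists covered thyroid, colon epithelium, fibroblasts, endothelium and leukocytes. As alternatives, each library was left out, the replicate number was added as a block, limma was run with no trend or robustly, and the pseudocount, filter and scaling were changed. Promoter windows came from RefSeq (GRCh38.p14), with 1 start read for each member. Python 3.11.15 with pandas 2.3.3, numpy 2.4.6, scipy 1.17.1 and matplotlib 3.10.9 was used.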

Additional observations from a re-analysis of the deposited data

How the results depend on the processing

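The log2 difference of GJB2 lay between -1.56 (without shCtrl replicate 2) and -1.34 (without shCtrl replicate 1) under 14 alternatives, and since GJB2 was chosen for it, nothing is read from its sign or its calls. The number of members called was 0 with a pseudocount of 0.1, with no filter and with limma without trend, and ranged from 0 to 1 when 1 library was dropped (0 without either shTBX3 library). Over all genes limma called 7 with a pseudocount of 0.1 (927 at an unadjusted p under 0.05), 0 with no filter (1249 at that limit) and 132 with the replicate number as a block, and between 12 (without shTBX3 replicate 1) and 55 (without shCtrl replicate 1) with 1 library dropped. The cause was not tested.

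The deviations of same-numbered libraries from their group means correlated at 0.26 over 13924 genes (with 2 libraries a group, crossed numbers give the negative of this by construction), but the labels do not say that a number marks a shared culture. With the replicate block the adjusted p of JUN was 0.0272, of TJP3 0.0422 and of LGALS4 0.033, all past the threshold.

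Small differences changed sign. GJC1 was at 0.00 (positive before rounding) under quantile normalization and ran from -0.16 (without shTBX3 replicate 1) to 0.09 (without shTBX3 replicate 2) as 1 library was dropped. With 1 library dropped PANX1 ran from -0.03 to 0.11, GJD3 from -0.30 to 0.54 and PANX2 from -0.43 to 0.17. The negative PANX1 value came without shTBX3 replicate 1, the negative GJD3 values without shCtrl replicate 1 or shTBX3 replicate 2 (-0.00), and the positive PANX2 value without shCtrl replicate 2. The mean GJB2 share was 52.7% in shCtrl and 25% in shTBX3 over all connexins. It was 42% and 18.6% with pannexins added, and 89.8% and 73.5% over the 6 connexins among the members, by construction of the sum. Depth limits GJB1, GJA1, GJB5 and GJB6, which rest on at most 13 fragments in any library.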
